A study of Manihot esculenta with 9 samples.

Results

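BURP domain genes are the subject here, and they were found by a search for "BURP domain" in the gene descriptions of the authors' deposited table. The search took 20 of the 33033 genes. For 19 of them the nearest *Arabidopsis* gene in the table is AT5G25610 (*RD22*), and for 1 of them, Manes.12G028700, it is AT1G23760. The search itself uses no expression value, but the family, and Manes.06G160600 within it, was chosen by its levels in these same libraries, from earlier results. Differences between groups are therefore given as a description of these libraries, with the values of each library, and the number of members that changed is no independent evidence of a response of the family.

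The 9 libraries come from mature leaves of wild-type cassava seedlings (TM60444 in the paper's methods), grown from stem cuttings in bottles and 60 days old when treated. The 3 MS control libraries come from seedlings in MS medium, the 3 ABA libraries from medium brought to 50 μmol/L ABA, and the 3 PEG libraries from medium brought to 7% PEG6000, an osmotic agent that withdraws water. Leaves were collected 48 h after the additions. The paper's methods call the 3 libraries of a group biological replicates and do not say if each was made from a separate plant, so p-values measure the spread between these libraries. Levels are the authors' FPKM values, which scale reads to gene length and sequencing depth, and they are written as mean ± SD (n = 3 libraries). Log2 fold changes and adjusted p-values come from edgeR's quasi-likelihood test on read counts over the 23984 genes that passed the filter on low counts. Rises and falls are differences with an adjusted p under 0.05.

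The family is named after BNM2 of oilseed rape, USP of field bean, RD22 of *Arabidopsis* and PG1β of tomato. Its members are plant proteins that enter the secretory pathway and carry a BURP domain, with conserved cysteine and histidine residues, at the C-terminal end. In *Arabidopsis*, *RD22* is a dehydration gene that is switched on by ABA, and the transcription factors MYC2 and MYB2 act on its promoter. PG1β binds polygalacturonase, a pectin-degrading enzyme, in the wall of the tomato fruit, and USP is a seed protein.

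The libraries held 13923803 to 16378389 reads in the MS control, 14850183 to 15690202 reads with ABA and 15847859 to 17108746 reads with PEG. Genes of the leaf's photosynthetic cells (rubisco small subunit, rubisco activase and antenna proteins, 9 genes) were abundant in every library, with a summed level of 4069 to 4598 FPKM in the MS control, 1085 to 1206 FPKM under ABA and 9049 to 9430 FPKM under PEG. Lists of stress and growth genes were counted as a check of the labels. Late embryogenesis abundant proteins and dehydrins include proteins that protect drying cells. Of 48 tested genes so described, 17 rose and 16 fell under ABA, and 8 rose and 33 fell under PEG. Compared directly, 11 were higher and 28 lower under PEG than under ABA. Of 14 clade A protein phosphatases 2C, which ABA normally raises, 12 rose and 1 fell under ABA, 2 rose and 10 fell under PEG, and 1 was higher and 11 lower under PEG than under ABA. Of 64 tested genes with a word starting with cyclin in their description, 38 rose and 6 fell under ABA, and 50 rose and 8 fell under PEG. From ABA to PEG 41 were higher and 14 lower. The planned search also took cyclin inside longer words and had 67 tested genes. Of these 38 rose and 8 fell under ABA, 51 rose and 8 fell under PEG, and 43 were higher and 14 lower from ABA to PEG. Both cyclin lists, and that of late embryogenesis abundant proteins and dehydrins, rest on text alone. Which of their genes act in cell division, or protect drying cells, was not looked up. Over all genes tested, 32.9% rose and 33.4% fell under ABA, and 35.6% rose and 35.1% fell under PEG. Genes listed for guard cells (3 tested), phloem companion cells (2 tested) and root cells (5 tested) were also counted. In this order they had 1 rise and 1 fall, 1 fall, and 4 rises under PEG. Under ABA they had 3 falls, 2 rises, and 2 rises and 2 falls. The root list holds only matches of AT3G54220 and AT1G79840, and whether these mark root cells in leaf RNA was not tested. The part of cell types in the results was not tested. From these data a true response to PEG and swapped labels of the MS control and PEG libraries cannot be told apart. Directions below follow the labels, and for the members the direct comparison of PEG with ABA is given beside them. In leaf RNA, fewer cells of a type and less RNA per cell cannot be told apart either.

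Most BURP domain genes lie in groups along the chromosomes of the cassava genome v6.1, whose positions the authors' table uses. A run of 7 members, Manes.06G160100 to Manes.06G160900, spans 201 kb of chromosome 6 from 26194411 to 26395656 with 2 other genes between them. A pair, Manes.03G065700 and Manes.03G066300, lies within 113 kb of chromosome 3 from 7294396 to 7407091. Another 6 members, Manes.03G125200 to Manes.03G128100, lie within 328 kb of the same chromosome from 22212772 to 22540305. The remaining 5 members are single genes. The counting of reads that fit several copies is not described in the sources used here, and a member's value may hold reads of another copy.

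Of the 20 members, 12 passed the filter on low counts, and 9 reached a group mean of 1 FPKM or more. Under ABA 8 of the 12 rose and none fell, where 32.9% of all genes tested rose, 33.4% fell and 66.3% did either. By edgeR's quasi-likelihood test at an unadjusted p under 0.05, 1 member, Manes.03G126100, was lower under ABA, and by DESeq2's adjusted p the count was 0. Under PEG 8 rose and 2 fell, against 35.6% and 35.1% of all genes, or 70.7% in either direction. From ABA to PEG 2 were higher and 7 lower, against 39.1% and 35.6% of all genes, or 74.7% in either direction.

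With a fold of at least 2 as well, 6 members rose and none fell under ABA (10.6% and 8.79% of all genes), and 8 rose and 2 fell under PEG (12.4% and 9.72%). From ABA to PEG 2 were higher and 7 lower by this measure (16.0% and 12.9%). The libraries of the groups did not overlap for 9 of the 12 members between ABA and the MS control, 11 between PEG and the MS control and 10 between PEG and ABA, against 70.4%, 74.7% and 79.1% of all genes. The median log2 fold change of the 12 members was 1.61 under ABA and 1.82 under PEG, and over all genes tested it was -0.00 and 0.00. A member could pass the filter through the group in which it is high, so these counts do not stand for all 20. The 2 comparisons with the MS control share its 3 libraries and are not independent.

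**Figure D1:**
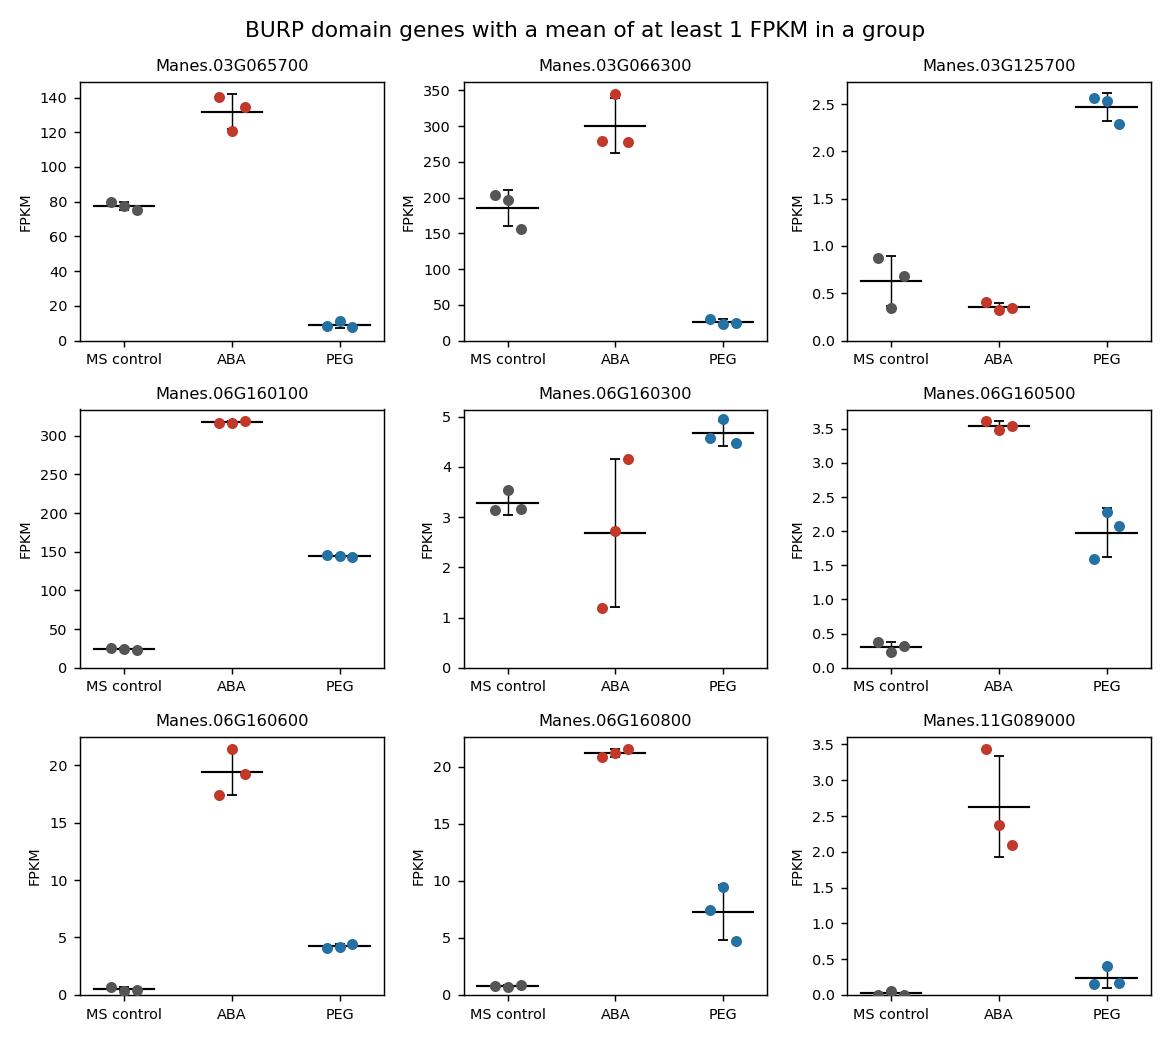
FPKM in each library (y axis, linear from 0) of the 9 BURP domain genes that reached a group mean of 1 FPKM, by group (x axis). Points are libraries, horizontal lines are means and bars are SD (n = 3). Manes.06G160100, Manes.06G160500, Manes.06G160600, Manes.06G160800 and Manes.11G089000 are highest under ABA and lowest in the MS control, Manes.03G065700 and Manes.03G066300 are lowest under PEG, and Manes.03G125700 is highest under PEG.

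The run on chromosome 6 held most of the members that rose under both treatments. Of its 6 tested genes, 5 rose under ABA and under PEG, and 4 of these were lower under PEG than under ABA. The order of ABA above PEG above the MS control, with all 3 differences past the threshold, was found in 5 of the 12 members tested, these 4 and Manes.11G089000, and in 3.33% of all genes tested. The order of PEG above ABA above the MS control was found in no member and in 5.71% of all genes.

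Manes.06G160100 was the most abundant gene of the run. It had 25.1, 24.6 and 23.05 FPKM in the MS control libraries, 316, 317 and 319 FPKM under ABA and 146, 144 and 143 FPKM under PEG. The 3 groups lay far apart, and the libraries within each differed little. Means were 24.3 ± 1.07 FPKM in the MS control, 317 ± 1.47 FPKM under ABA and 145 ± 1.08 FPKM under PEG. The log2 fold change was 3.77 (standard error 0.04) under ABA and 2.44 (standard error 0.03) under PEG, and the PEG minus ABA difference was -1.33 (standard error 0.03).

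Manes.06G160600, the member named with the search, was nearly silent without treatment. Its libraries had 0.683, 0.344 and 0.402 FPKM in the MS control, on 13, 7 and 9 reads. Under ABA they had 17.4, 21.4 and 19.3 FPKM and under PEG 4.10, 4.19 and 4.43 FPKM. No library of any group reached the range of another. The mean under ABA, 19.4 ± 2.00 FPKM, was 40.7 times that of the MS control, 0.476 ± 0.181 FPKM, and the mean under PEG, 4.24 ± 0.169 FPKM, was 8.91 times. On the log2 scale of the fitted counts the differences were 5.41 (standard error 0.17) under ABA and 3.02 (standard error 0.20) under PEG. The first of these was the 40th highest of the 23984 genes tested. The PEG minus ABA difference was -2.39 (standard error 0.12), the 1041st lowest.

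Manes.06G160800 had a like order, and a like level in FPKM but not in reads. Over the ABA libraries it had 3882 reads, against 1207 for Manes.06G160600. The FPKM values of Manes.06G160800 rest on a length of 4026 bases, while its locus spans 2547. In the MS control it had 0.785, 0.668 and 0.880 FPKM, under ABA 20.9, 21.2 and 21.6 FPKM, and under PEG 7.44, 9.48 and 4.75 FPKM. Its PEG libraries were more spread than its ABA libraries, but all lay between those of the MS control and of ABA. The log2 fold change was 4.83 (standard error 0.23) under ABA and 3.08 (standard error 0.23) under PEG, and PEG minus ABA was -1.75 (standard error 0.18).

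Manes.06G160500 moved in the same order at a lower level. It had 0.373, 0.233 and 0.317 FPKM in the MS control, 3.61, 3.48 and 3.54 FPKM under ABA and 1.59, 2.28 and 2.08 FPKM under PEG. None of the group ranges overlapped. The log2 fold change was 3.56 (standard error 0.24) under ABA and 2.53 (standard error 0.27) under PEG, and PEG minus ABA was -1.03 (standard error 0.17).

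The weakest of the 5 rising genes was Manes.06G160700, with 11 reads over the MS control libraries, 57 under ABA and 48 under PEG. Its level was 0.149 ± 0.104 FPKM in the MS control, 0.749 ± 0.160 FPKM under ABA and 0.570 ± 0.108 FPKM under PEG. It rose by 2.39 (standard error 0.44) on the log2 scale under ABA and by 1.81 (standard error 0.46) under PEG. The ABA and PEG libraries overlapped, and their difference of -0.58 (95% interval -1.21 to 0.05, adjusted p = 0.124, quasi-likelihood test of edgeR) did not pass.

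A pair of genes in the same run did not follow this order. Manes.06G160300 had 3.14, 3.55 and 3.16 FPKM in the MS control, 1.19, 2.72 and 4.15 FPKM under ABA and 4.57, 4.96 and 4.48 FPKM under PEG. The ABA libraries spanned the MS control, and all PEG libraries lay above both other groups. The log2 difference under ABA was -0.23 (95% interval -0.82 to 0.36, adjusted p = 0.525, quasi-likelihood test of edgeR). Under PEG it was 0.37 (adjusted p = 0.250 from the same test), and PEG minus ABA was 0.60 (adjusted p = 0.0775, also by edgeR). The difference under PEG passed at the same size of 0.37 when only the MS control and PEG libraries were fitted (adjusted p = 0.0114 from the same test) and without ABA replicate 1 (adjusted p = 0.0424 from the same test). Without ABA replicate 1 the difference under ABA was 0.12, and without ABA replicate 3 it was -0.68 and passed (adjusted p = 0.0402 from the same test). PEG minus ABA also passed without ABA replicate 3, at 1.05. Manes.06G160900, at the far end of the run, did not pass the filter on low counts, with 14 reads over the MS control libraries, 4 under ABA and 4 under PEG.

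The genes around and between these members had smaller log2 differences than the 5 rising members. Between the members, Manes.06G160400 (an HSP20-like chaperone) had a log2 difference of 0.11 under ABA and -0.01 under PEG, and neither passed. The other gene between them, the transposase Manes.06G160200, was not tested. In the 6 nearest genes outside the run, all tested, values lay between -0.07 and 0.30 under ABA and between -0.73 and 0.50 under PEG, with 2 rises under ABA, and 2 rises and 3 falls under PEG.

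**Figure D2:**
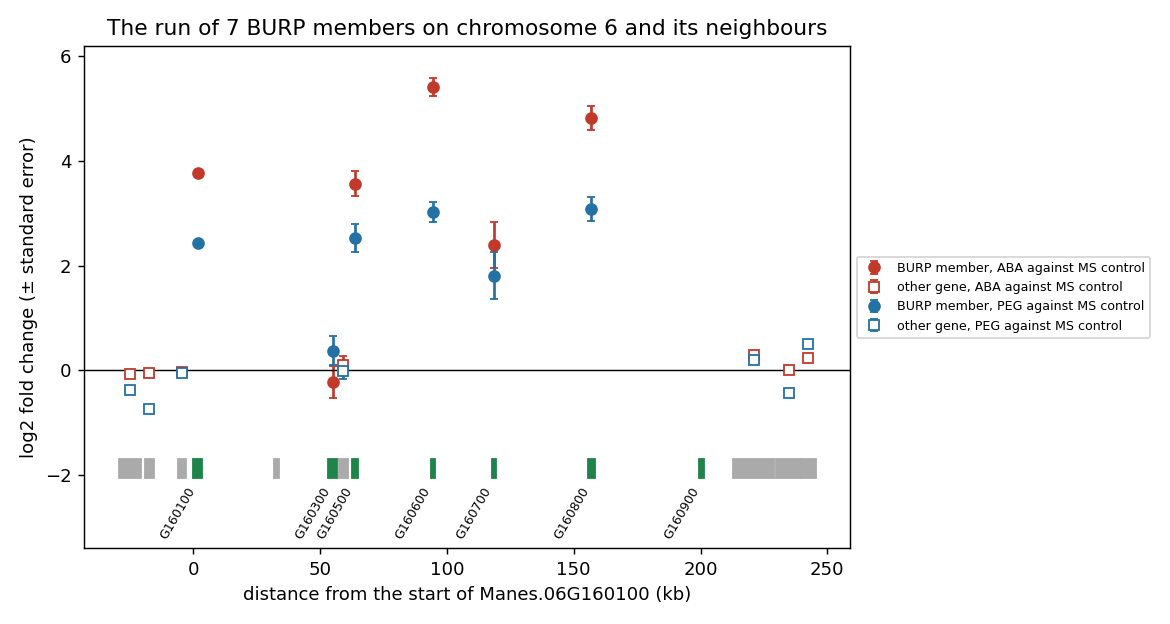
Log2 fold change against the MS control (y axis, bars are standard errors) of the genes tested in and around the run on chromosome 6, by distance from the start of Manes.06G160100 (x axis, kb). Filled circles are BURP domain genes, open squares the other genes, red ABA and blue PEG, and the boxes below mark gene positions, green for BURP domain genes and grey for others. The values of 5 BURP domain genes lie between 1.81 and 5.41, and Manes.06G160300 and the other genes lie between -0.73 and 0.50.

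The pair on chromosome 3 was highly expressed and went in opposite directions under ABA and PEG. Manes.03G066300 had 204, 197 and 157 FPKM in the MS control, 280, 345 and 277 FPKM under ABA and 30.7, 23.6 and 24.4 FPKM under PEG. Every ABA library lay above, and every PEG library below, the range of the MS control. Means were 186 ± 25.4 FPKM in the MS control, 300.8 ± 38.5 FPKM under ABA and 26.2 ± 3.93 FPKM under PEG, which is 7.08 times lower than the MS control. The log2 fold change was 0.76 (standard error 0.12) under ABA and -2.96 (standard error 0.13) under PEG.

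Manes.03G065700 is a gene model of 360 bases. It had 79.8, 77.5 and 75.5 FPKM in the MS control, 140, 121 and 135 FPKM under ABA and 8.37, 11.2 and 7.54 FPKM under PEG, again with no overlap between groups. Its log2 fold change was 0.83 (standard error 0.09) under ABA and -3.23 (standard error 0.11) under PEG. In reads it held 2.18% to 4.01% of the number of Manes.03G066300 over the 9 libraries, and 2.18% to 3.80% within PEG alone. The range was narrow beside the fall of both genes under PEG, but not beside their rise under ABA. Of the 5 genes between them 4 were tested, and none passed in any comparison, with log2 differences of -0.07 to 0.17 under ABA and -0.16 to 0.60 under PEG. Among the nearest genes outside the pair 4 were tested, with 1 rise and 2 falls under ABA (-0.95 to 0.47). Under PEG these had 1 rise and 1 fall (-0.52 to 0.25).

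Both genes belong to the 11.2% of genes tested with ABA above the MS control above PEG and all differences past the threshold. The PEG minus ABA difference was -3.72 (standard error 0.13) for Manes.03G066300 and -4.06 (standard error 0.11) for Manes.03G065700. If the labels of the MS control and PEG were swapped, these values with the sign turned would be their rise under ABA. In that case 7 of the 12 members would be higher under ABA than in the control, the pair, 4 genes of the chromosome 6 run and Manes.11G089000. Manes.03G125200 and Manes.03G125700 would be lower, and Manes.06G160700 would no longer pass. The 8 rises under PEG would become falls and the 2 falls rises.

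**Figure D3:**
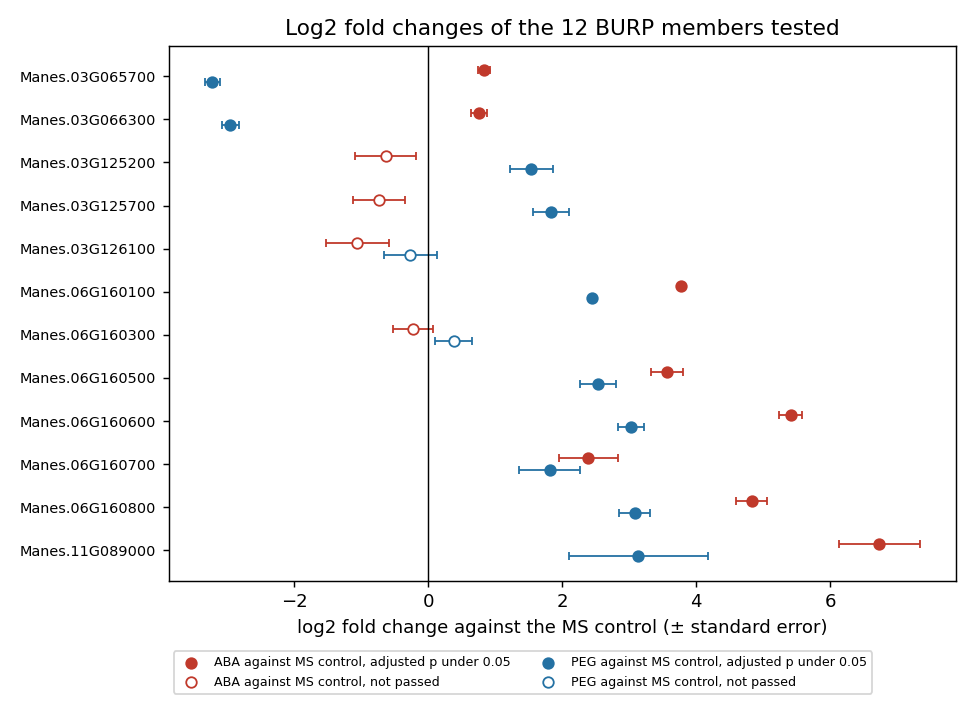
Log2 fold change against the MS control (x axis, bars are standard errors) of the 12 BURP domain genes that passed the filter on low counts (y axis). Red is ABA, blue is PEG, and filled points passed the threshold of 0.05 on the adjusted p. The chromosome 3 pair lies at 0.76 and 0.83 under ABA and at -2.96 and -3.23 under PEG, and the 5 rising genes of chromosome 6 lie between 1.81 and 5.41.

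The second group on chromosome 3 was weakly expressed, and its 3 tested genes rose under PEG or did not pass. Manes.03G125700 had 0.871, 0.339 and 0.678 FPKM in the MS control, 0.408, 0.322 and 0.339 FPKM under ABA and 2.57, 2.54 and 2.29 FPKM under PEG. All PEG libraries lay above the others, while the ABA and MS control libraries overlapped. It rose by 1.83 (standard error 0.27) on the log2 scale under PEG, and its difference of -0.74 under ABA did not pass (adjusted p = 0.122, quasi-likelihood test of edgeR). Without MS control replicate 2 the latter was -1.03 and passed (adjusted p = 0.0399 from the same test). PEG minus ABA was 2.57 (standard error 0.30).

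Manes.03G125200 followed the same pattern on fewer reads. It had 3 to 8 reads in each MS control library, 3 or 4 under ABA and 19 to 24 under PEG, where its level was 0.801 ± 0.0744 FPKM against 0.251 ± 0.117 FPKM in the MS control. The log2 fold change under PEG was 1.53 (standard error 0.32), PEG minus ABA was 2.17 (standard error 0.36), and under ABA the difference was -0.64 (adjusted p = 0.280, quasi-likelihood test of edgeR). The rise under PEG with no call under ABA, and PEG above ABA, was shared by these 2 members and by 9.71% of all genes tested.

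For Manes.03G126100 the levels were 0.662 ± 0.209 FPKM in the MS control, 0.3013 ± 0.00920 FPKM under ABA and 0.607 ± 0.294 FPKM under PEG. All ABA libraries lay below the MS control libraries, with 5 reads each against 7 to 15, but the log2 difference of -1.06 did not pass (adjusted p = 0.0652, quasi-likelihood test of edgeR). It passed without MS control replicate 2 (-1.30) or without PEG replicate 1 (-1.06). The log2 difference under PEG was -0.27, and PEG minus ABA was 0.79 and passed only without PEG replicate 1 (1.15). The remaining genes of this group did not pass the filter on low counts. Manes.03G125800 had 13 reads over the MS control libraries, 8 under ABA and 26 under PEG. Without that filter its PEG minus ABA difference was 1.33 and passed (adjusted p = 0.0493, quasi-likelihood test of edgeR). Manes.03G125600 and Manes.03G128100 had 1 read each in all.

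Other genes between these members changed as well. Of 24 such genes 14 were tested, of which 2 rose and 5 fell under ABA, and 8 rose and 3 fell under PEG. Among them were 3 tested genes described as leucine-rich repeat receptor-like kinases. Manes.03G125500 fell by 1.63 on the log2 scale under ABA and rose by 0.81 under PEG. Manes.03G126000 rose by 1.64 under PEG, and its difference of -0.38 under ABA did not pass. Manes.03G126200 fell by 2.41 under ABA, and its difference of -0.03 under PEG did not pass. Among the nearest genes outside the group 5 were tested, with 3 rises and 0 falls under ABA (0.05 to 2.39). Under PEG these had 0 rises and 4 falls (-1.27 to -0.02).

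Among the single genes, Manes.11G089000 (chromosome 11, 12933665 to 12934907) was detected mostly under ABA. It had 0, 1 and 0 reads in the MS control libraries, 59, 43 and 36 under ABA and 3, 8 and 3 under PEG, which correspond to 2.63 ± 0.711 FPKM under ABA and 0.241 ± 0.142 FPKM under PEG. Scaled to total counts, the reads under ABA were 137 times those of the MS control (95% exact interval 24.2 to 5457), and under PEG 12.7 times (95% exact interval 1.93 to 536). These intervals cover counting error only. The fitted log2 fold change of 6.73 under ABA rests on the single MS control read and was the 15th highest of all genes tested. The rise under PEG (adjusted p = 0.0180, quasi-likelihood test of edgeR) did not pass without MS control replicate 1, without MS control replicate 3 or without PEG replicate 2 (adjusted p = 0.0544, 0.0638 and 0.0713 from the same test). The PEG minus ABA difference was -3.59 (standard error 0.38).

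Manes.12G028700 (chromosome 12, 2199429 to 2201418), whose nearest *Arabidopsis* gene belongs to the PG1β-like branch of the family, had 3 reads over the MS control libraries, 26 under ABA and 12 under PEG. It did not pass the filter on low counts. In the ABA libraries it had 4, 8 and 14 reads, all above those of the MS control (0, 3 and 0). Scaled to total counts, the reads under ABA were 8.62 times those of the MS control (95% exact interval 2.64 to 44.5).

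Manes.16G066600 had 5 reads in the MS control, 2 under ABA and none under PEG, and Manes.03G020400 had 4 reads, all under ABA. Manes.S050100, on a scaffold, had no read among the 140510147 counted over the 9 libraries. A count of 0 allows up to 3 reads of that total (0.0214 RPM), by counting error alone. These genes were near or under what this depth can detect.

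Summed over the 20 members, the level was 295 ± 28.5 FPKM in the MS control, 802 ± 29.4 FPKM under ABA and 203 ± 6.24 FPKM under PEG, and a few members carried nearly all of it. Manes.03G066300 held 62.8% ± 2.72 of the MS control sum, 37.4% ± 3.36 of the ABA sum and 12.9% ± 1.73 of the PEG sum. The share of Manes.06G160100 was 8.26% ± 0.458 of the MS control sum, 39.6% ± 1.51 with ABA and 71.1% ± 1.76 with PEG. On these FPKM values Manes.03G066300 was first in the MS control and Manes.06G160100 first under PEG, an order that depends on gene length as given next. Under ABA the 2 had means of 300.8 ± 38.5 and 317 ± 1.47 FPKM, with ranges that overlapped.

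These sums and shares depend on the gene length behind the FPKM values. For 4 members, Manes.03G066300, Manes.03G125200, Manes.03G128100 and Manes.06G160800, the length implied by counts and FPKM is greater than the span of the locus, as it is for 955 of 29760 genes in the table. That of Manes.03G066300 is 4500 bases, while its locus spans 2231. With the locus span as length for every member, an alternative chosen after seeing the data, its share was 80.1% of the MS control sum, 66.6% with ABA and 38.4% with PEG. That of Manes.06G160100 was then 1.89%, 12.7% and 38.1%, so that Manes.03G066300 was first in the MS control and under ABA, and under PEG both were nearly equal, at 52.9 ± 7.93 and 52.2 ± 0.388 FPKM. The sum over the 20 members was 466 ± 53.6 FPKM in the MS control, 908 ± 68.5 FPKM under ABA and 137 ± 9.34 FPKM under PEG on this length. Differences between groups within a gene do not depend on this length.

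**Figure D4:**
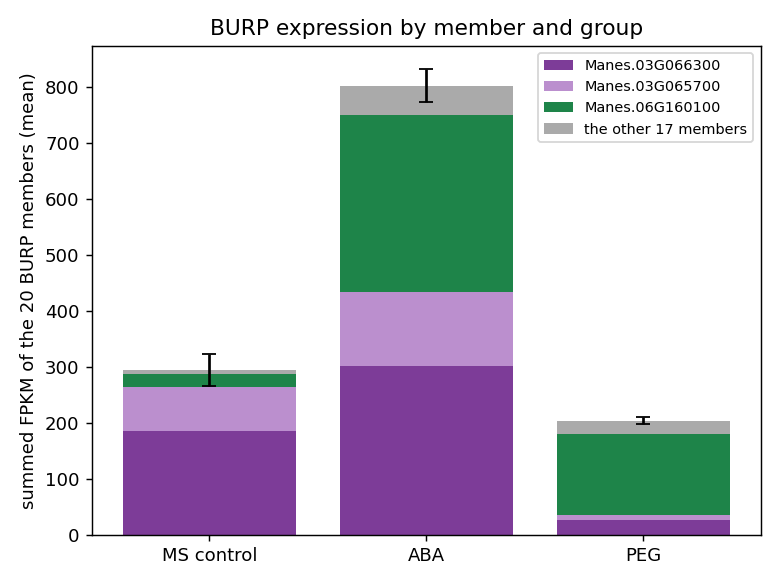
Mean summed FPKM of the 20 BURP domain genes (y axis, from 0) in the MS control, ABA and PEG libraries (x axis). Colours are the 3 most abundant members and the other 17 together, and bars on top are the SD of the sum (n = 3). The sum is 295 FPKM in the MS control, 802 FPKM under ABA and 203 FPKM under PEG, with Manes.06G160100 making up 71.1% under PEG. With the locus span as gene length these values are 466, 908 and 137 FPKM, and 38.1%.

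A further 11 genes have an *Arabidopsis* BURP gene as nearest match but a description without the term, and they are not counted as members. Their matches are AT1G70370, described in the table as polygalacturonase 2 although it is a relative of tomato PG1β, and AT1G49320, a relative of the field bean seed protein USP. Of the 8 tested, 5 rose and 3 fell under ABA, and 5 rose and 1 fell under PEG. The PG1β-like gene Manes.13G030400 (chromosome 13, 2854809 to 2857112) had 0.853, 0.614 and 0.390 FPKM in the MS control, 10.9, 9.20 and 11.03 FPKM under ABA and 4.43, 4.67 and 4.38 FPKM under PEG. Its groups did not overlap and had the order seen in the chromosome 6 run, with log2 fold changes of 4.14 (standard error 0.18) and 2.74 (standard error 0.19).

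Near it, Manes.13G030600 went from 4.03 ± 0.260 FPKM to 19.8 ± 0.354 FPKM under ABA and 12.9 ± 0.405 FPKM under PEG. Manes.14G066900, also PG1β-like, was highest under PEG, with 0.531 ± 0.0700 FPKM in the MS control, 1.25 ± 0.186 FPKM under ABA and 4.78 ± 0.358 FPKM under PEG. In contrast Manes.12G028800, the neighbour of the member Manes.12G028700, fell under ABA by 0.78 (standard error 0.07) on the log2 scale. The tested USP-like genes differed in direction. Manes.07G098200 had 3.74 ± 0.438 FPKM in the MS control, fell to 2.15 ± 0.203 FPKM under ABA and rose to 10.1 ± 0.835 FPKM under PEG. Manes.15G164700 fell under ABA (log2 -0.57), and its difference under PEG did not pass. Manes.17G100000 rose under ABA (log2 1.53) and did not pass under PEG. Manes.04G116100, with no read in the MS control, rose under both, on 21 reads under ABA and 39 under PEG.

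Genes matched to MYC2 and MYB2, which act on the *RD22* promoter in *Arabidopsis*, were looked up together with matches of MYC3 and MYC4. The counts are for all of these together, so they are not counts of *RD22* regulators alone. Of 12 genes matched to MYC2, MYC3, MYC4 or MYB2, 10 were tested, of which 7 rose and 2 fell under ABA, and 7 rose under PEG, where the other 3 did not pass. From ABA to PEG 2 were higher and 4 lower. The most abundant, the MYC2 match Manes.17G016000, had 60.2 ± 0.928 FPKM in the MS control, 42.3 ± 0.409 FPKM under ABA and 70.2 ± 1.69 FPKM under PEG. A second MYC2 match, Manes.02G002300, rose under both, from 2.79 ± 0.512 FPKM to 9.42 ± 0.641 FPKM under ABA and 5.59 ± 0.447 FPKM under PEG. Manes.15G182700, matched to MYC4, fell by 0.42 on the log2 scale under ABA and had a difference of -0.05 under PEG that did not pass.

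The ABA pathway was also counted from *Arabidopsis* matches. Of 12 tested ABA receptor genes 2 rose and 8 fell under ABA. The receptors act on the clade A protein phosphatases 2C counted above, which hold the pathway off. Of 8 SnRK2 kinase genes, which pass the signal on, 4 rose and 3 fell. The ABF group of transcription factors had 5 rises among 6 tested, led by Manes.05G174500, which went from 95.9 ± 3.97 FPKM to 409 ± 4.47 FPKM under ABA and was at 87.9 ± 2.76 FPKM under PEG. Among genes of ABA synthesis 5 of 6 rose, with Manes.15G102000, an NCED3 match, at 5.90 ± 0.332 FPKM in the MS control and 223 ± 4.73 FPKM under ABA. Of 6 CYP707A genes, which break ABA down, 3 rose and 3 fell. The most abundant in the MS control, Manes.07G081100, went from 124 ± 6.77 FPKM to 13.1 ± 0.659 FPKM under ABA and 5.72 ± 0.640 FPKM under PEG. The summed level of the CYP707A list was 184 to 198 FPKM in the MS control, 81.6 to 82.6 FPKM under ABA and 57.2 to 58.6 FPKM under PEG. Under PEG the same lists had 1 rise and 5 falls (receptors), 2 and 3 (SnRK2 kinases), 1 and 4 (ABF group), 1 and 3 (ABA synthesis) and 1 and 4 (ABA breakdown). From ABA to PEG 9 receptor genes were higher and 3 lower, with 2 and 5 for SnRK2 kinases, 1 and 5 for ABA synthesis and 1 and 5 for ABA breakdown, and all 6 ABF group genes were lower.

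The genes whose levels were most like those of Manes.06G160600 were sought among 16201 genes with a mean of at least 5 FPKM, by the Pearson correlation of log2(FPKM + 1) over the 9 libraries. As the 9 libraries form 3 groups, this measure mostly describes the order and spacing of the group means. The 5 nearest were Manes.05G052900 (homeobox-leucine zipper protein 3, r = 0.997), Manes.04G106200 (a terpenoid cyclase, r = 0.997), Manes.12G047100 (a vacuolar iron transporter family protein, r = 0.996), Manes.04G067900 (basic chitinase, r = 0.995) and Manes.15G084800 (a NAC domain protein, r = 0.995). Manes.05G052900 had 0.605 ± 0.0465 FPKM in the MS control, 14.7 ± 0.906 FPKM under ABA and 3.23 ± 0.203 FPKM under PEG. With a pseudocount of 0.1 in place of 1 FPKM only 1 of these 5 genes stayed among the 5 nearest. Within the family, r was 0.979 for Manes.06G160800 (rank 96 of the 16201 genes) and 0.970 for Manes.06G160100 (rank 164). For Manes.03G066300 and Manes.03G065700 it was 0.209 and 0.206.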

How the data were processed

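RNA-seq of mature leaves gave 9 libraries (MS control, ABA and PEG, 3 of each), with groups and replicate numbers from the sample titles. The table deposited by the authors has raw counts for every gene. Its FPKM values, also the authors', imply 1 gene length per gene from counts and total counts, within 0.0797% between libraries. HISAT2 2.0.4 and StringTie 1.3.0 are named in the submitters' processing notes, with no role stated. For strand and the tool that counted reads, nothing is given in the sources used here.

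The test on counts was that of edgeR 4.0.16, run in R 4.3.3 (filterByExpr, TMM scaling, quasi-likelihood test, 1 fit of the 9 libraries, Benjamini-Hochberg over 23984 genes, threshold 0.05). Standard errors were computed from the test statistic, and 95% intervals of log2 differences are normal ones. The test was checked on simulated data. Alternatives were other scalings and filters, DESeq2 1.42.0, the groups compared alone, a replicate block, a fold of at least 2, each library left out, and another pseudocount and FPKM minimum for the likeness measure. The length of the locus span was added after the data were seen.

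Members, lists and tests were chosen with earlier results of these data known. By rule every member was accounted for, those that reached a group mean of 1 FPKM by library. Of each list, up to 3 of the most abundant genes were looked at and some named. Replicates differed by more than sampling noise (median chi-square 0.662 to 0.843 against 0.455). Sequences of the members were not analysed here.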

Additional observations from a re-analysis of the deposited data

How the results depend on the processing

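Of 562 recomputed log2 differences of the 12 members tested, 548 kept their direction and their side of the threshold, 9 passed it newly, 3 no longer passed and 2 changed sign. Counts of members that rose under ABA, and of those lower under PEG than under ABA, were 8 and 7 in each of the 9 fits that left out a library, and under PEG 7 to 9 rose. The count that fell under ABA, 0 in the report, was 0 to 2 in those fits (2 without MS control replicate 2, 1 without ABA replicate 3 or PEG replicate 1) and 1 without a filter on low counts (Manes.06G160900, on 22 reads). The count higher under PEG than under ABA, 2 in the report, was 1 among genes that reached a group mean of 1 FPKM, since Manes.03G125200 was not tested there. Leaving out single libraries moved the log2 difference of Manes.06G160300 under ABA between -0.68 and 0.12 and that of Manes.03G126100 under PEG between -0.51 and 0.089. With no scaling beyond library size the median over all genes moved by 0.13 for PEG against the MS control and by 0.20 for PEG against ABA. The share of rises among called genes went from 50.4% to 61.0% and from 52.4% to 65.3%, and the one member whose call changed was Manes.06G160300, whose PEG minus ABA difference of 0.80 then passed. Deviations of same-numbered libraries correlated weakly, by -0.0385 to 0.0682 over all groups. Between the MS control and PEG every library correlated best with its own number, at 0.0682, 0.0311 and 0.0374 for numbers 1 to 3. If the replicate numbers pair the libraries of these 2 groups is not settled by values this small. With the replicate block 15663, 16727 and 17667 genes were called in place of 15894, 16946 and 17911 (ABA and PEG against the MS control, PEG against ABA), and it changed no call of a member. Depth limits the 8 members not tested, all with 47 reads or fewer over the 9 libraries.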
